A study of Fragaria vesca with 9 samples.

Results

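The comparison described here sets 3 axillary bud libraries of the line FT3OE against 3 of H4, which is 6 of the 9 libraries of the series; they were chosen by their sample titles, and no measured value was used. Both groups are *Fragaria vesca*, woodland strawberry, and the ecotype and genotype labels of both read Hawaii-4. H4 is that accession itself, and FT3OE, a genotype named in the study's design text, carries FT3 in its sample titles and is read here as a line overexpressing FT3. The promoter that drives FT3, the number of independent lines and the number of plants behind a library are not stated in the labels. No treatment was applied to either group. Plants had 4 leaves and had grown from seed in days of 16 h at 22 °C and nights of 8 h at 18 °C, under 250 μmol m−2 s−1, and the buds were undifferentiated ones from node 4. H4 titles include US4 where FT3OE titles include UB4, and the labels define neither code, so a difference that the codes may mark cannot be told apart from the genotype. The other 3 libraries, of the ecotype RdV, are used for the shared estimate of spread and for side-by-side levels. Their titles include UB4, as those of FT3OE do, so H4 alone carries US4. Where FT3OE and RdV lie together and away from H4, the genes follow the title code too, and the 2 cannot be told apart.

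An axillary bud sits at the base of a leaf. In strawberry it can stay dormant, grow into a runner, which is a long creeping stem that makes daughter plants, or become a branch crown, a short leafy shoot that can carry an inflorescence. Proteins of the FLOWERING LOCUS T family are the mobile flowering signals known as florigen: in Arabidopsis the protein is made in leaves, moves to the shoot tip, and acts there with a transcription factor partner on genes of floral identity. Members of the family also influence branching in several species, which is the setting of a comparison of bud transcriptomes with and without extra FT3.

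Library totals ranged from 23110933 to 30448630 expected counts in H4 and from 26493200 to 44916872 in FT3OE, so FT3OE replicates 2 and 3 were deeper than every H4 library. Values of log2 CPM (CPM, counts scaled to depth with TMM factors) correlated across genes at 0.9898 to 0.9929 within a group and at 0.972 to 0.9766 between the groups; such correlations run over genes, which are not independent replicates. Chi-square per degree of freedom was 5.956 or more for every pair within a group, so no library counted as a repeat of another. The labels do not say that replicates came from separate plants, so the spread behind every p-value may be technical. Genes appear by identifier, as 0 of the 34006 identifiers were found in the gene table used here and the deposited tables give no names. For the same reason no sequence is shown, and pathway lists were not tested.

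The transgene could not be checked by name, because neither the labels nor the tables pair FT3 with an identifier. One identifier stood far apart from all others, FvH4_3g09870. It had 3, 1 and 0 counts in H4 replicates 1, 2 and 3 and 7584, 11460 and 13889 in FT3OE replicates 1, 2 and 3. In CPM these were 0.101, 0.0454 and 0 in H4 and 281, 251 and 303 in FT3OE. The groups lay far apart, and the FT3OE libraries lay close together (278 ± 25.7 CPM, SD, n = 3). RdV libraries had 1 count of it in all. On the TPM scale, which divides by gene length, its mean was 453 ± 36.6 in FT3OE (SD, n = 3), against 0.0733 ± 0.0751 in H4.

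The rise of FvH4_3g09870 was the largest of the 3112 rises in this comparison. After scaling for depth, FT3OE held 5546 times the summed counts of H4, with a 95% exact counting interval of 2166 to 20356 and an edgeR adjusted p of 2.75e-10. The H4 side of that ratio rests on 4 counts, and the interval covers counting error only: the fitted log2 change of FvH4_3g09870, 12.33 with all libraries, was 13.51 without H4 replicate 1 and 11.73 without H4 replicate 3. Its neighbours on linkage group 3 did not share this size of change. The tested gene before it, FvH4_3g09830, had a log2 change of 0.53 (edgeR adjusted p = 9.97e-05), and the one after it, FvH4_3g09890, 0.323 (edgeR adjusted p = 0.00673), and among the 10 tested genes on each side of it values ran from −0.527 to 0.98. Linkage group and order are read from the identifier, whose form is taken to give both; no annotation was used.

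FvH4_5g13500 had the next largest rise among called genes of at least 5 CPM in the higher group and with no overlap between the groups, at a far lower level. It had 0, 0 and 2 counts in H4 replicates 1, 2 and 3, and 188, 281 and 293 in FT3OE. In CPM the FT3OE values were 6.97, 6.16 and 6.38, and the single H4 library with counts held 0.071. It was at 0 in every RdV library, so among the 9 libraries its reads lay almost wholly in FT3OE. After scaling for depth the summed counts in FT3OE were 257 times those in H4 (95% exact counting interval 70.8 to 2123; edgeR adjusted p = 1.28e-05). It rests on 2 counts in H4 replicate 3: the fitted log2 change of FvH4_5g13500 was 7.81, and 10.7 without H4 replicate 3, 7.22 without H4 replicate 1 and 7.40 without H4 replicate 2. Of its 20 nearest tested neighbours 4 (20%) were called, against 31.7% of all tested genes, and neither adjacent gene was among them.

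Among called genes of at least 5 CPM in the higher group and with no overlap between the groups, the deepest fall was in FvH4_6g01540. This gene was close to silent in FT3OE. Counts were 227, 219 and 256 in H4 replicates 1, 2 and 3 and 7, 0 and 0 in FT3OE replicates 1, 2 and 3, that is 7.67, 9.94 and 9.08 CPM against 0.259, 0 and 0. The depth-scaled ratio of H4 to FT3OE was 149 (95% exact counting interval 71.9 to 372; edgeR adjusted p = 5.80e-05). FT3OE replicate 1 held all of its FT3OE counts: without that library the fitted log2 change of FvH4_6g01540 was −11.2, against −7.09 with all libraries, and with 0 counts on one side that value is no bound. It was −6.41 and −6.40 without FT3OE replicate 2 and replicate 3. RdV was equally low, with 3 counts over its 3 libraries. FT3OE and RdV could not be told apart for this gene, at a log2 difference of 0.74 ± 1.53 (SE; edgeR adjusted p = 0.782).

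FvH4_2g35050 fell from a much higher level. Its CPM were 198, 236 and 245 in H4 replicates 1, 2 and 3 and 4.74, 1.03 and 0.98 in FT3OE, with 128, 47 and 45 counts in the latter. The group ranges lay far apart, and FT3OE replicate 1 was again the highest of its group. The log2 change was −6.85 ± 0.39 (SE; edgeR adjusted p = 1.42e-06), and −7.81 without FT3OE replicate 1, −6.47 without replicate 2 and −6.45 without replicate 3. RdV lay between the groups at 13.3 ± 0.65 CPM (SD, n = 3), and above FT3OE (log2 value of FT3OE minus RdV −2.76 ± 0.40, SE; edgeR adjusted p = 0.000715); without FT3OE replicate 1 that value was −3.72. The adjacent tested genes, FvH4_2g35040 and FvH4_2g35051, had edgeR adjusted p of 0.79 and 0.315.

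**Figure D1:**
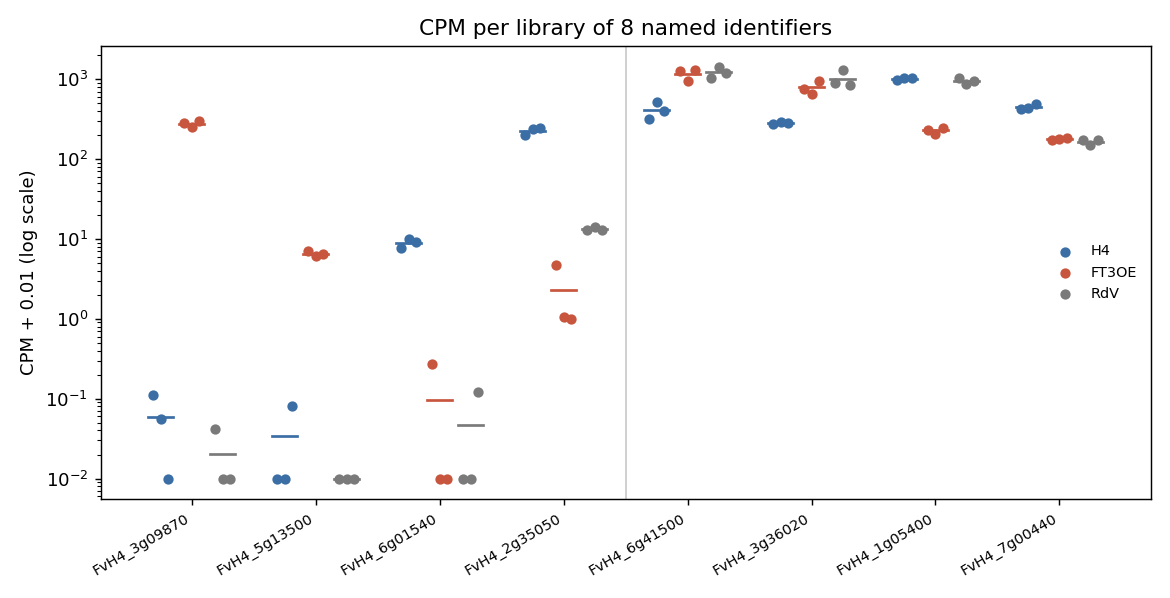
CPM plus 0.01 on a log axis in each library (points) with the group mean (bars) for 4 identifiers on the left of the line, the 2 of largest rise and 2 of largest fall among called genes of at least 5 CPM in the higher group, and on the right the 4 chosen likewise among genes of at least 100 CPM in both groups; H4 is blue, FT3OE red and RdV grey. FvH4_3g09870 stands at 251 to 303 CPM in FT3OE and at or below 0.101 in every other library. Lack of overlap between H4 and FT3OE was a condition for each identifier shown.

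Complete appearance or loss of a transcript was rare. Requiring at least 10 counts in each library of one group and 0 in each of the other, 3 genes were read in FT3OE alone and 1 in H4 alone. FvH4_2g08040 had 47, 100 and 54 counts in FT3OE replicates 1, 2 and 3 and none in H4, at least 45.1-fold higher with the H4 group set to a floor of 3 summed counts. FvH4_3g15650 had 21, 26 and 25 counts and was at least 16.2-fold higher. FvH4_1g06140 had 17, 40 and 13 counts and was at least 15.7-fold higher, with too few counts to pass the low-count filter. In the other direction FvH4_3g36381 had 14, 14 and 29 counts in H4 and 0 in FT3OE, at least 28.2-fold lower with the same floor on the FT3OE side. These are low counts on the read side too, and at a minimum of 50 counts no such gene was left. The split is between H4 and FT3OE only: in RdV replicates 1, 2 and 3, FvH4_3g36381 had 39, 31 and 17 counts. FvH4_2g08040 had 4, 5 and 4 there, FvH4_3g15650 had 0, 0 and 2, and FvH4_1g06140 had 0 in each.

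On the TPM scale more genes crossed a low level. Of all genes in the table, 172 were below 1 TPM in each H4 library and at or above 1 TPM in each FT3OE library, 120 of them called higher, and 60 crossed the other way, 47 of them called lower. Of all tested genes 16.7% were called higher and 14.9% lower. The crossing genes were picked by a gap in these same libraries, so their calls are no further result. The number of genes at or above 1 TPM was 17229 to 17297 in H4 libraries and 17560 to 17616 in FT3OE libraries, with no overlap, while 16571 genes were at or above that level in all 6 libraries. Depth differed between these libraries too, with 26493200, 44045169 and 44916872 counts in FT3OE replicates 1, 2 and 3, and its part in the numbers of genes at 1 TPM was not tested. The TPM scale also lay higher in FT3OE. Among genes with a mean of at least 1 TPM, the median change in log2(TPM + 1) was 0.13, against 0.013 for all tested genes under TMM. The part of this shift in the crossings was not tested either.

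Across all 18587 genes tested, 5884 (31.7%) differed between FT3OE and H4 in the edgeR quasi-likelihood test at a Benjamini-Hochberg adjusted p under 0.05. Higher genes made up 16.7% of those tested and lower genes 14.9%. That order depended on the fit: with only the 6 libraries of H4 and FT3OE, 3553 genes were higher and 3738 lower. The groups did not overlap in CPM in 5816 of the called genes, which is 98.8% of them, against 51.1% of all genes tested. The replicate spread was small: the median SD of log2 CPM was 0.101 over the 3 H4 libraries and 0.0903 over the 3 FT3OE libraries, and the median absolute log2 change of all tested genes was 0.211. In bulk tissue, fewer cells of a type and less RNA per cell cannot be told apart in any of these differences.

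Most of the called changes were slight, and the 2 directions differed in size. Among higher genes the median log2 change was 0.482, with the middle 50% between 0.299 and 0.904; among lower genes it was −0.386, between −0.615 and −0.273. Below 1.5-fold the lower genes were the more numerous, with 2006 lower and 1812 higher. Between 2-fold and 4-fold there were 573 higher and 251 lower. Beyond 4-fold the numbers were close again, at 94 higher and 85 lower.

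**Figure D2:**
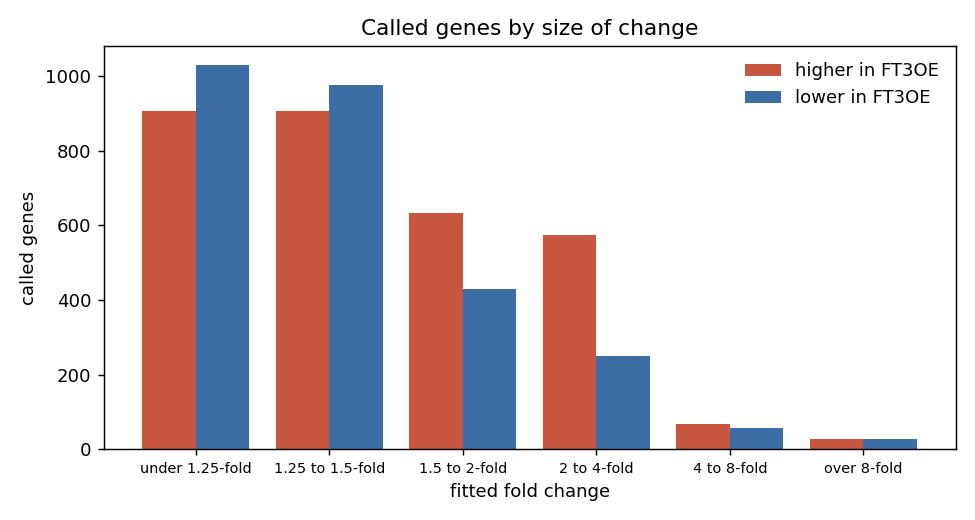
Number of called genes (edgeR adjusted p under 0.05) by fitted fold change, higher in FT3OE in red and lower in blue. Higher genes outnumber lower genes from 1.5-fold to 4-fold, and the numbers over 8-fold are 27 and 28.

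A test of the size itself left far fewer genes. With edgeR's glmTreat, which asks whether a change is larger than 2-fold rather than larger than 0, 173 genes (0.931% of those tested) passed at an adjusted p under 0.05, 85 higher (0.457%) and 88 lower (0.473%). By the fitted value alone, 667 of the called genes were at least 2-fold higher and 336 at least 2-fold lower. The split of the genes past the 2-fold test depended on the setting: it was 123 higher and 80 lower under library totals alone, 84 and 90 under RLE scaling, and 33 and 42 with limma on log2(TPM + 1) against 51 and 46 on log2(TPM + 0.1). Without 1 library, the glmTreat count of higher genes fell to 54 (FT3OE replicate 1) and 55 (H4 replicate 3), and that of lower genes was then 75 and 78. Each of the 173 had no overlap between the groups, against 51.1% of all genes tested. Passing the test in the same libraries favours such separation, so it is no further result. The 173 were genes of moderate level: the median over genes of the mean CPM was 10.7 for the higher and 12.1 for the lower, against 21.4 for all tested genes. Their median log2 changes were 1.87 and −2.2.

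**Figure D3:**
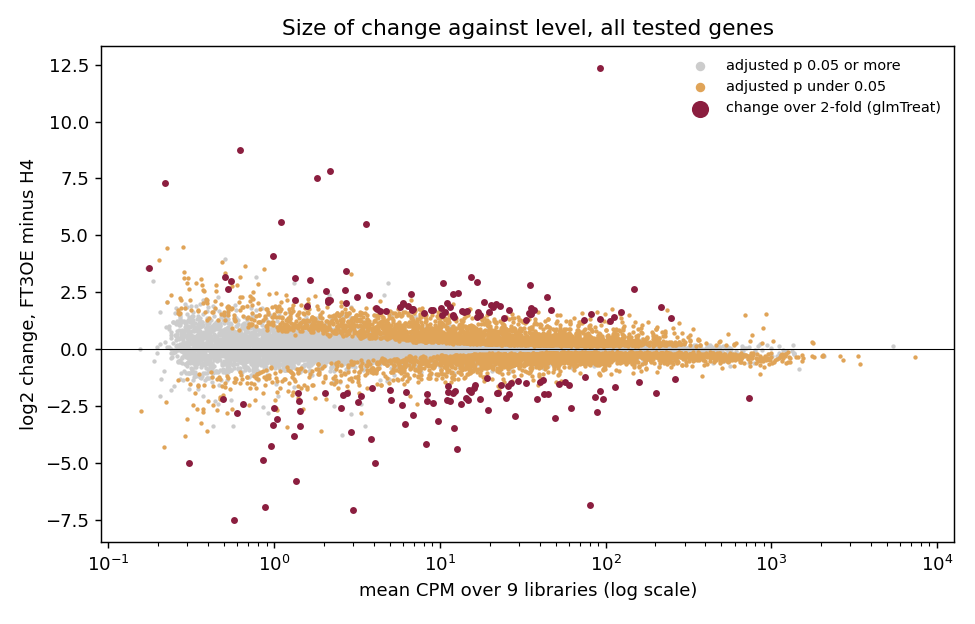
Log2 change of FT3OE minus H4 against the mean CPM over the 9 libraries (log axis) for the 18587 tested genes; grey points did not pass, orange points had an edgeR adjusted p under 0.05 and dark red points passed the glmTreat test for a change over 2-fold (173 genes). The orange points lie mostly above 0 on the left of the plot and mostly below 0 at the highest levels on the right.

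The direction of change ran with the level of the gene. In the lowest quartile of tested genes, at a mean of 0.156 to 5.38 CPM, 625 genes were higher and 277 lower in FT3OE, so that 69.3% of the calls were higher. Without FT3OE replicate 3 the lowest quartile had 404 higher and 191 lower. In the next quartile up 871 were higher and 558 lower, and in the third 887 and 761. In the highest quartile, from 55.8 to 7411 CPM, 729 were higher and 1176 lower, and 38.3% of the calls were higher. The share called rose from 19.4% in the lowest quartile to 41.0% in the highest, and the median absolute log2 change of called genes fell from 1.18 to 0.307. Over called and uncalled genes together, the median log2 change went from 0.113 in the lowest quartile through 0.0355 and 0.00688 to −0.0388 in the highest.

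Genes of at least 100 CPM in both groups showed this most. There were 2171 of them, and 905 were called (41.7%, against 31.7% of all tested genes). Of the called, 686 were lower in FT3OE against 219 higher. Only 3 of the 2171 passed the test for a change over 2-fold, against 0.931% of all tested genes. A minimum of 100 CPM in both groups itself leaves out genes that are low in either group, so it limits large changes. With any 1 of the 6 libraries left out, 21.0% to 24.3% of the calls among these genes were higher, against 24.2% with all libraries, and without FT3OE replicate 3 there were 144 higher and 506 lower. With all libraries thinned to 23110936 counts the value was 24.2%.

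The sign of the shift at high level depended on the scaling, while the lowest quartile kept a larger share of higher calls than the highest in each setting for which the split by level was computed. Under library totals alone the median log2 change over the 18587 genes moved to 0.107, from 0.013 under TMM, and 4568 genes were higher and 1777 lower, which is 72.0% of calls higher against 52.9% under TMM. The highest quartile then had 62.3% of its calls higher, and genes of at least 100 CPM 48.1%, against 78.2% in the lowest quartile. The limma test on log2(TPM + 1) gave 76.6% of all calls higher with a median log2 change of 0.13; it gave 80.0% in the lowest quartile, 69.6% in the highest and 55.4% among genes of at least 100 CPM. RLE scaling gave 50.8% for all genes, 68.3% in the lowest and 35.9% in the highest quartile.

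Shares of a library's own TPM, which no scaling factor changes, also differed between the groups. The 1000 most abundant genes of each library held 52.29%, 53.05% and 52.72% of all TPM in H4 replicates 1, 2 and 3 and 49.38%, 48.51% and 49.54% in FT3OE. The groups did not overlap, and FT3OE was lower by 3.55 percentage points (52.69% ± 0.383 against 49.14% ± 0.553, SD, n = 3 each; two-sided exact permutation p = 0.1, the smallest that 3 against 3 libraries allow). For the top 100 genes the means were 18.04% ± 0.293 and 15.97% ± 0.396 (SD, n = 3 each; exact permutation p = 0.1), again without overlap. The top 10 genes held 3.564% and 3.45%, and the groups overlapped (exact permutation p = 0.5). RdV libraries held 47.38%, 51.33% and 48.45% in their top 1000 genes.

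**Figure D4:**
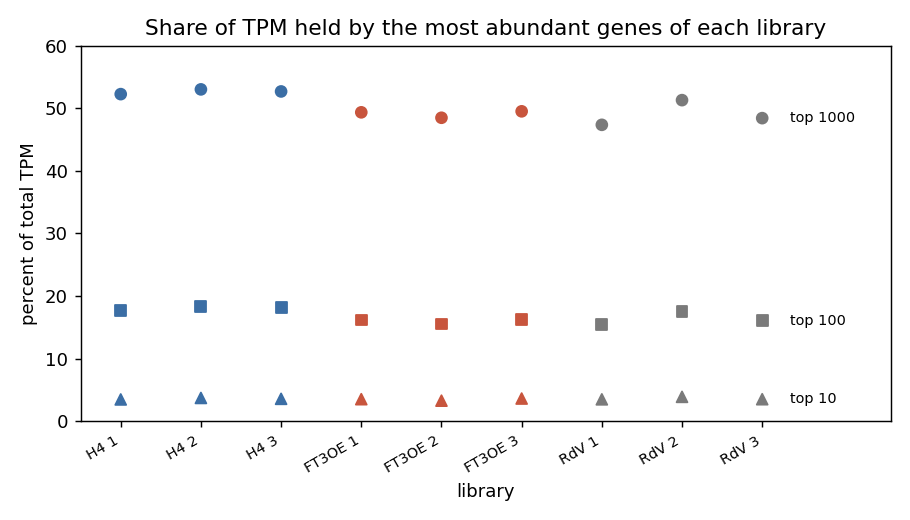
Percent of all TPM held by the 10 (triangles), 100 (squares) and 1000 (circles) most abundant genes of each library; H4 is blue, FT3OE red and RdV grey. The 3 H4 libraries lie between 52.29% and 53.05% for the top 1000 genes and the 3 FT3OE libraries between 48.51% and 49.54%.

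The called genes carried a large part of the transcript pool. Genes called higher summed to 8.29% to 8.51% of TPM in the H4 libraries and 13.0% to 13.5% in the FT3OE libraries, and genes called lower to 41.0% to 41.4% and 33.9% to 34.2%. In RdV replicates 1, 2 and 3 the same higher genes summed to 14.3%, 13.2% and 14%, and the lower genes to 33.2%, 34.4% and 33.8%. The sums thus set H4 apart from RdV as well as from FT3OE. The genes were chosen by this same contrast, so these sums describe its size and are not a further test. Lower genes began from the higher level: the median over genes of the mean CPM was 44.8 for lower and 23.2 for higher genes.

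Among called genes of at least 100 CPM in both groups and with no overlap between them, 4 identifiers changed most, 2 in each direction. Lack of overlap was thus a condition for naming them and is no further result. FvH4_6g41500 had 316, 513 and 396 CPM in H4 replicates 1, 2 and 3 and 1277, 948 and 1285 in FT3OE. The lowest FT3OE library was well above the highest H4 library, although both groups spread widely. Its log2 change was 1.52 ± 0.18 (SE; edgeR adjusted p = 0.000191), and it did not pass the glmTreat test for more than 2-fold (adjusted p = 0.131). RdV was at 1226 ± 200.2 CPM (SD, n = 3), not told apart from FT3OE (log2 difference −0.07 ± 0.18, edgeR adjusted p = 0.835).

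FvH4_3g36020 stood at 274, 290 and 285 CPM across the H4 libraries and at 762, 656 and 962 CPM across FT3OE, where replicate 3 was the highest. The log2 change was 1.49 ± 0.17 (SE; edgeR adjusted p = 0.000124), and it did not pass the glmTreat test for more than 2-fold (adjusted p = 0.118). RdV was at 1019 ± 248 CPM (SD, n = 3), not told apart from FT3OE (log2 difference −0.36, edgeR adjusted p = 0.146). FvH4_3g36020 is read from a short model, with an effective length of 0.144 of the median tested gene. Per length it was thus among the stronger transcripts: its mean was 1601 ± 85.7 TPM in H4 and 4850 ± 1046 TPM in FT3OE (SD, n = 3 each). The tested gene after it, FvH4_3g36040, changed in the opposite direction, with a log2 change of −3.61 (edgeR adjusted p = 0.00525).

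FvH4_1g05400 was the abundant gene with the deepest fall, and the one in which FT3OE stood apart from both other genotypes. H4 libraries held 975, 1025 and 1047 CPM. FT3OE libraries held 233, 205 and 247 CPM, and RdV libraries 1037, 860 and 950. The FT3OE values lay far below all others, and H4 and RdV overlapped. The log2 change was −2.15 ± 0.09 (SE; edgeR adjusted p = 1.82e-07), it passed the glmTreat test for more than 2-fold (adjusted p = 7.43e-06), and FT3OE minus RdV was −2.06 ± 0.09 (edgeR adjusted p = 1.00e-07). The next tested gene, FvH4_1g05410, fell as well, with a log2 change of −2.63 (edgeR adjusted p = 0.0162), while the one before it, FvH4_1g05390, was at −0.0181.

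FvH4_7g00440 stood at 420, 433 and 487 CPM across the H4 libraries and at 175, 181 and 181 CPM across FT3OE, so the FT3OE libraries were nearly equal and all far below H4. Its log2 change was −1.32 ± 0.07 (SE; edgeR adjusted p = 9.72e-07), and it passed the glmTreat test for more than 2-fold (adjusted p = 0.0127). RdV was at 165 ± 12.1 CPM (SD, n = 3). FvH4_7g00440 lay in a stretch with many lower genes: of its 20 nearest tested neighbours 9 were lower and 2 higher, with a median log2 change of −0.224. Over all tested genes 14.9% were called lower and 16.7% higher. RdV and H4 values share the H4 libraries with the main comparison, so the levels are set side by side and no likeness is drawn from them.

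Calls lay on all 7 linkage groups in similar shares. The share of tested genes called ran from 30.3% on linkage group 3 to 32.8% on linkage group 6, with higher genes at 16.0% to 17.4% and lower genes at 14.3% to 15.4% on each. The genes past the 2-fold glmTreat test numbered 13 on linkage group 7 and 22 to 34 on each of the others. The linkage groups differ in size: these were 13 of 2248 tested genes on linkage group 7 and 34 of 3534 on linkage group 6. Linkage group 1 had 29 of 2097, against 173 of 18587 (0.931%) in all. On linkage group 6 there were 21 higher and 13 lower and on linkage group 2 there were 8 higher and 15 lower.

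**Figure D5:**
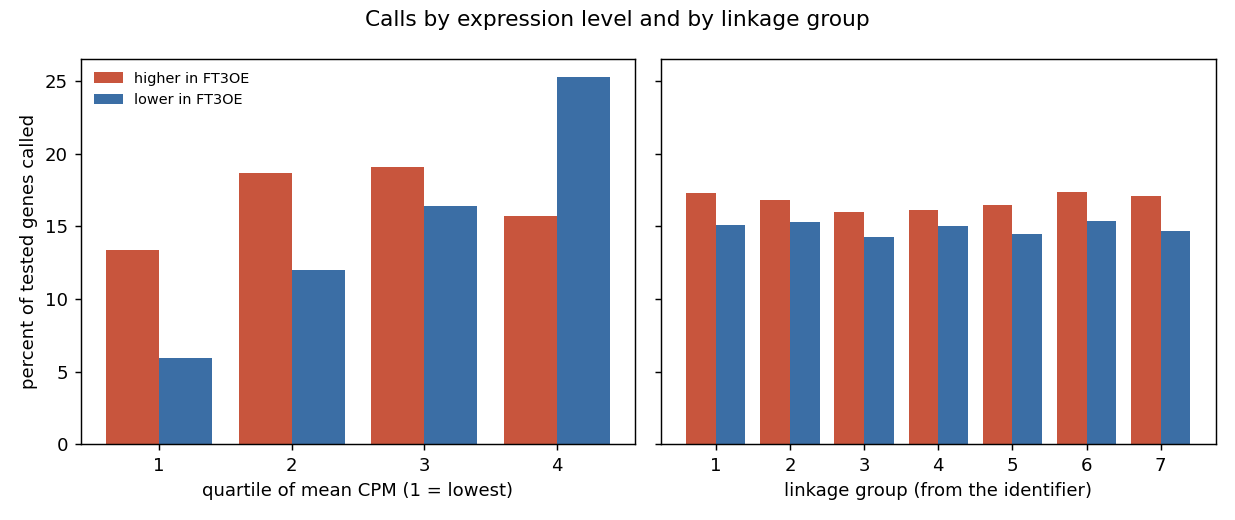
Percent of tested genes called higher (red) and lower (blue) in FT3OE by quartile of mean CPM (left) and by linkage group (right). In the lowest quartile 13.4% are higher and 5.96% lower, in the highest 15.7% and 25.3%, while the 7 linkage groups differ little.

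Neighbouring genes were compared by direction. There were 18566 pairs of adjacent tested genes, and in 1901 both were called, where 31.7% of all tested genes were called. Of the 1901 pairs, 1080 (56.8%) had the same direction and 821 opposite directions. Over all calls 52.9% were higher. That share and the 31.7% are shares of single genes, so neither is the share to expect among pairs, which was not computed. Neither the number of pairs with both genes called nor the share of same-direction pairs was tested. Stranded libraries were made, but no label says whether counting used strand, so overlapping neighbours may share reads. The longest unbroken run of calls in one direction was 7 higher genes, from FvH4_7g33030 to FvH4_7g33100, with log2 changes of 0.357 to 1.26. A run of 6 lower genes from FvH4_2g38031 to FvH4_2g38080 had a median of −0.819.

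In sliding windows of 20 neighbouring tested genes, the median window held 3 higher and 3 lower calls. The fullest windows of higher genes held 12. One lay on linkage group 4 from FvH4_4g29370 to FvH4_4g29640, with 12 higher, 0 lower and a median log2 change of 1.06, and the other on linkage group 1 from FvH4_1g15130 to FvH4_1g15530, with 12 higher, 2 lower and a median of 0.478. The fullest window of lower genes, with 11, was the stretch of linkage group 7 from FvH4_7g00212 to FvH4_7g00650 that contains FvH4_7g00440. These windows and runs were picked after their values were seen and were not tested.

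Gene length moved with the direction too, and its part in the result was not tested beyond a correction. The median effective length, relative to the median tested gene, was 1.15 for higher and 0.951 for lower genes. After a correction that removes the trend of each library with length, 3228 genes were higher and 3147 lower, and the highest expression quartile had 33.7% of its calls higher, the lowest 70.0%.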

How the data were processed

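Axillary buds were profiled by stranded mRNA sequencing with 150 bp paired reads, per the labels' protocols. The authors deposited expected counts per gene, which are estimates and not normalized, and TPM per gene, which divide by effective length and sum to the same total in every library. The submitters' processing notes list STAR, RSEM and edgeR with no version; genome build and annotation: not given in the sources used here. Expected counts split reads between near-identical copies, which leaves close paralogs uncertain.

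Expected counts were whole in 97.5% of values and were rounded. Genes kept by filterByExpr (18587) were scaled by TMM and tested with glmQLFit, glmQLFTest and glmTreat (edgeR 4.0.16, R 4.3.3) in a joint fit of the 9 libraries, with Benjamini-Hochberg adjustment over all genes tested. RdV libraries spread more than the others, with a median SD of log2 CPM (prior count 2) of 0.134. SE were derived from the quasi-likelihood F statistic. A floor of 3 counts is 0.0668 to 0.1298 CPM per library. The test was also run on simulated counts in which few genes changed, up or down at random. That check does not bear on the choice of scaling.

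Named identifiers are the 2 higher and 2 lower with the largest log2 change among genes with adjusted p under 0.05, at least 5 CPM in the higher group and no overlap between the groups, then the same among genes of at least 100 CPM in both groups, and genes read in 1 group only where there are 5 or fewer; adjacent genes and ends of windows are named for position. The comparison, rules and lists were chosen with earlier results of these data known. The alternatives tried were DESeq2 1.42.0, limma 3.58.1 (log2 TPM plus 1 or 0.1, mean of at least 1 TPM), RLE size factors, unscaled library totals, other filters, the 6 compared libraries alone, a replicate block, robust dispersions, an adjusted p under 0.01, and each library left out. Thinning to equal totals, the length correction and the splits by level under other settings were chosen after seeing the data. Gene lists and cell type markers could not be matched to identifiers and were not tested.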

Additional observations from a re-analysis of the deposited data

How the results depend on the processing

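With 1 library left out, 4119 to 4605 genes were called (2173 to 2457 higher, 1946 to 2221 lower, 129 to 166 over 2-fold). Lower genes numbered 1777 under library totals alone, 1341 with limma on log2(TPM + 1) and 1336 on log2(TPM + 0.1), and genes over 2-fold 75 and 97 with those limma fits. At an adjusted p under 0.01, 3270 genes were called, 1710 higher and 1560 lower, and 115 passed the 2-fold test. Genes read on one side only numbered 2 at 20 counts and 0 at 50. Under library totals alone the share called was 21.9% in the lowest quartile of level and 35.1%, 34.6%, 33.5%, 33.4%, 33.6%, 35.0% and 33.9% on linkage groups 1 to 7; the cause of these shifts in counts was not tested. The other settings run kept the number of calls within 1.5 times, with 7291 in the fit of only the 6 libraries. Of 373 recomputed values of named genes, 370 kept their direction and side of the threshold. The log2 difference of FT3OE minus RdV, past the threshold in neither case, changed sign for FvH4_6g01540 without FT3OE replicate 1 (−3.32; range over single libraries left out −3.32 to 1.42) and for FvH4_6g41500 without FT3OE replicate 2 (0.064; range −0.14 to 0.064); for FvH4_3g36020 it passed under the length correction (−0.40, edgeR adjusted p = 0.032). With the replicate number as a block, 5312 genes were called, 2814 higher and 2498 lower, 162 over 2-fold. No pairing by number was seen: deviations of same-numbered H4 and FT3OE libraries correlated at −0.341 to 0.119, and those of other pairs at −0.253 to 0.329. By this measure 1 of 6 libraries correlated best with its own number. Deviations from a mean of 3 libraries constrain one another, so the check does not decide whether the numbers pair samples. With limma on log2(TPM + 1) the log2 change was 2.96 for FvH4_5g13500, −2.09 for FvH4_6g01540 and 8.72 for FvH4_3g09870, since the pseudocount understates changes of low genes. Depth limits genes under a floor of 0.0668 to 0.1298 CPM per library.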
